A study of Mus musculus with 4 samples.

Results

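The genes that move and store zinc, copper and magnesium were compared between mouse bone marrow cells grown in either of 2 growth factors. The group was taken by gene symbol: every gene whose platform symbol begins with Slc30a, Slc39a, Slc31a or Slc41a, plus Mt1, Mt2, Mtf1, Atp7a and Atp7b. It holds 34 of the 19938 genes that the array names with a single symbol: 10 Slc30a genes, 14 Slc39a genes, 4 copper genes (Slc31a1, Slc31a2, Atp7a and Atp7b), 3 Slc41a genes, and Mt1, Mt2 and Mtf1. Each gene is represented by 1 probe set, and only Slc39a1 had a second. The GM-CSF group (2 arrays) was C57BL/6J marrow cultured for 7 days with granulocyte-macrophage colony-stimulating factor and called M1 by the submitters. Its cells came from a mixed culture and were sorted as CD45+, MHC class II+, CD8a- and positive for the macrophage antigen encoded by Adgre1. The M-CSF group (2 arrays), called M2, was C57BL/6J marrow cultured for 7 days with 20% supernatant of L929 cells, a mouse fibroblast line that secretes M-CSF, and sorted as CD45+, CD11b+ and positive for the same antigen. Both groups grew in RPMI with 10% serum. Growth factor, supernatant and sort gate therefore differ together and cannot be told apart. The labels give neither age nor sex. Nothing in them ties the replicates to different mice or dishes, so each p-value covers no more than the spread of these arrays, which may be technical within the M-CSF pair. The GM-CSF arrays did not share a mouse, as sex-linked genes given below show.

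Free zinc in a cell is kept very low. ZnT proteins (Slc30a genes) carry zinc out of the cytosol, to the outside or into vesicles and the Golgi, and ZIP proteins (Slc39a genes) carry it into the cytosol. Metallothioneins are small cysteine-rich proteins that bind zinc and copper, and the zinc-sensing factor MTF-1 switches on their genes when zinc rises. Copper enters through CTR1 (Slc31a1) and is pumped on by ATP7A and ATP7B, while SLC41 proteins move magnesium. Macrophages are known to withhold zinc from some microbes and to load copper into phagosomes against others.

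The marker genes of macrophages were high in both groups. All 9 measured macrophage markers lay above background in each group, where background is the 95th percentile of the olfactory receptor genes (5.90 on the log2 scale, mean of 4 arrays). The macrophage list's log2 summed level ran from 15.05 to 15.25 over the arrays. The dendritic cell list had a summed level of 11.80 and 12.04 in the GM-CSF arrays and 9.22 and 9.34 in the M-CSF arrays, with 7 and 4 of its 10 genes above background. That list includes H2-Ab1, a gene of the sorted class II protein, which was called higher in GM-CSF cells, as were Itgax (10.72 and 10.05 against 6.01 and 5.71), Clec9a (7.77 and 7.04 against 5.06 and 4.87) and Ccr7 (a log2 difference of 1.16). The other 6 dendritic genes did not pass, and of these Flt3, Xcr1 and Dpp4 lay below the background level in each group. The neutrophil list stood at 13.26 in GM-CSF replicate 1, 12.31 in GM-CSF replicate 2, and 11.47 and 11.27 in the M-CSF arrays. In each group 7 of its 11 genes were above background. In the GM-CSF arrays the list's level was carried by Mmp8, which read 12.91 and 11.78 there and 8.75 and 8.20 in the M-CSF arrays. Mmp8 was the one neutrophil gene called higher. The highest gene of the list in the M-CSF arrays was Csf3r, at 10.61 and 10.50. Csf3r (-0.86) and Mpo (-0.64) were called lower, Ngp differed by -0.09, and Ly6g, at 6.18 and 5.45 against 4.49 and 5.10, did not pass (1.02, adjusted p = 0.082 with limma). The eosinophil list stood at 9.73 in GM-CSF replicate 1 and between 8.30 and 8.52 in the other 3 arrays. Ear6 read 8.83 in GM-CSF replicate 1 and 5.91, 4.84 and 5.38 in the others. The mast cell and basophil list stood at 8.43 in GM-CSF replicate 1 against 8.09 to 8.17 in the others. Above background were 3 of 6 eosinophil genes in the GM-CSF group and 2 in the M-CSF group. For the mast cell and basophil list it was 2 of 8 and 1 of 8, so that sum is largely background. The B cell list stood at 8.99 and 9.26 in the GM-CSF arrays and 10.55 and 10.59 in the M-CSF arrays, and its difference was that of Cd79b (7.69 and 7.95 against 10.16 and 10.21). Cd22 and Pax5 differed by -0.05 each, and Cd79a and Ms4a1 lay below the background level in every array. The fibroblast list ran from 9.08 to 9.32, the T and NK cell list from 7.55 to 7.79 and the erythroid list from 7.23 to 7.31. In the fibroblast list Dcn was called higher in GM-CSF cells (7.63 and 6.94 against 6.42 and 6.03). Pdgfrb pointed the same way without passing. Col1a1, Col1a2, Col3a1 and Pdgfra pointed the other way without passing, and Lum was too dim to test. GM-CSF replicate 1 also stood apart in Xist (11.58, against 4.93, 4.53 and 4.80 in GM-CSF replicate 2 and the M-CSF arrays) and in the Y-linked Eif2s3y (3.66, against 9.10, 9.32 and 9.17). It therefore read as female and the other 3 arrays as male, and sex cannot be told apart from other differences within the GM-CSF pair. In such sorted bulk samples, fewer cells of a type and less RNA per cell cannot be told apart.

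Metal handling genes differed in both directions between the groups. Slc41a2, Slc30a4, Mt2, Slc39a4 and Slc31a1 were higher in GM-CSF cells, and Slc39a13, Slc39a8 and Slc30a5 were lower (limma, Benjamini-Hochberg adjusted p under 0.05 over 14995 genes). Of the 34 genes, 32 passed the filter on dim genes and were tested. The 8 called genes are 25.0% of those tested, beside 10.7% of all genes tested. The 5 higher genes are 15.6%, beside 6.18%, and the 3 lower genes 9.4%, beside 4.53%. Arrays of the groups did not overlap for 25 of the 32 (78.1%, beside 55.4% of all genes tested), 12 with both GM-CSF arrays above (37.5%, beside 26.3%) and 13 with both below (40.6%, beside 29.2%). The median log2 difference over all 34 genes was -0.04, beside -0.02 over all 19938 genes, and the median absolute difference was 0.23 beside 0.14. Called genes lay on both sides of 0 within the zinc exporters and within the zinc importers.

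**Figure D1:**
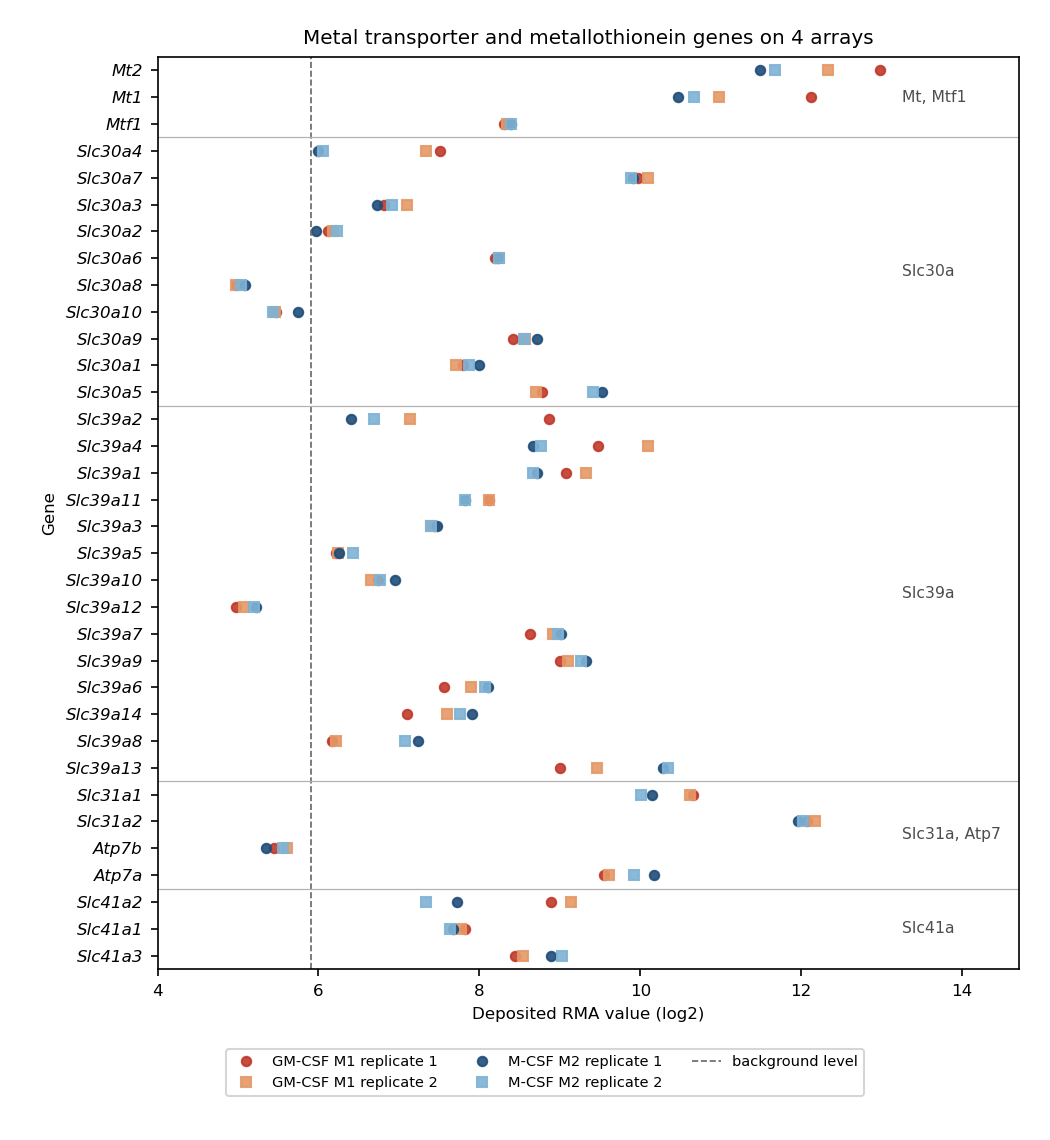
Deposited log2 value (horizontal axis) of each of the 34 genes (rows, by family) on the 4 arrays; colours mark the growth factor, shapes the replicate, and the dashed line the background level of 5.90. Levels can be compared along a row but not between rows, which are different probe sets; Slc30a4, Slc39a8, Slc39a13 and Slc41a2 show the arrays of each group well apart, and Mt1 and Slc39a2 show GM-CSF replicate 1 far above replicate 2.

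How many genes were called depended on the arrays kept. All 8 kept their direction when any single array was left out, which was fixed in advance because their arrays do not overlap between groups. The GM-CSF arrays lay further apart than the M-CSF arrays (the log2 difference within the pair had an SD of 0.325 and 0.1798 over the genes tested), and a fit without an M-CSF array rests on the GM-CSF pair alone. Without M-CSF replicate 1, 2 of these genes were higher and 0 lower (limma; 6 and 4 at an unadjusted p under 0.05), and Slc30a4 and Slc41a2 were the ones still called. Without M-CSF replicate 2, 1 was higher and 0 lower (again 6 and 4 unadjusted), and it was Slc30a4. Without GM-CSF replicate 2, 7 were higher and 7 lower, and without GM-CSF replicate 1, 7 and 3. Those fits take their spread from the close M-CSF pair, so their larger counts are no support for the calls. The numbers called over all genes tested likewise fell without either M-CSF array and rose without either GM-CSF array.

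**Figure D2:**
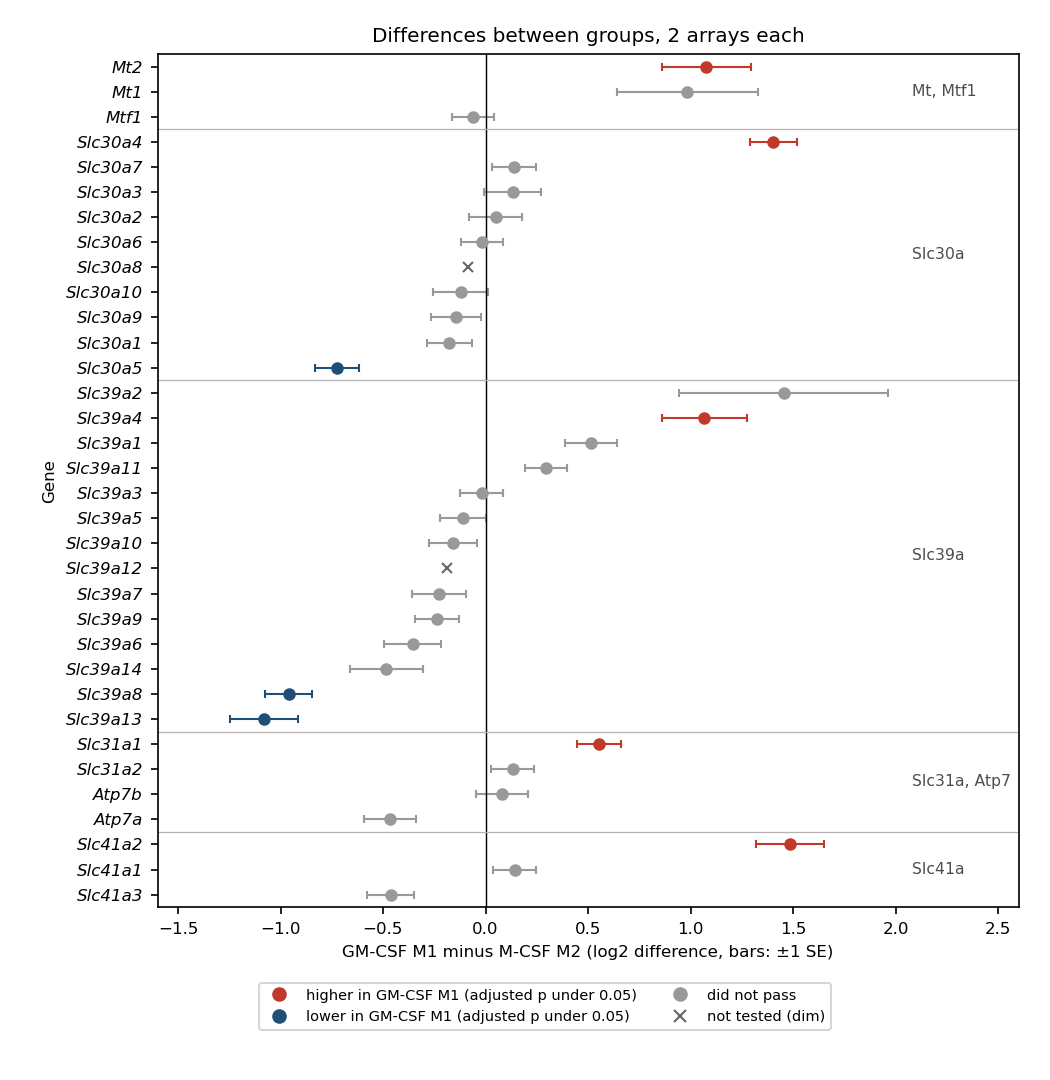
Log2 difference, GM-CSF M1 minus M-CSF M2 (horizontal axis, bars ±1 SE of the limma fit, 2 arrays per group), for each gene by family; red marks genes called higher, blue called lower, grey not passed, crosses the 2 dim genes that were not tested. The 5 red and 3 blue points are spread over the families, and Slc39a2 and Mt1 have large differences with wide bars.

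Metallothionein 2 was higher in GM-CSF cells and metallothionein 1 pointed the same way without passing. Mt2 read 12.98 and 12.34 in the GM-CSF arrays and 11.49 and 11.68 in the M-CSF arrays. Both GM-CSF arrays lay above both M-CSF arrays, with replicate 1 the highest. The difference was 2.11-fold (a log2 difference of 1.08 with an SE of 0.22 over 2 arrays in each group; adjusted p = 0.0296, limma). It did not pass with trended and robust variances (adjusted p = 0.0604) or without M-CSF replicates 1 and 2 (0.273 and 0.204).

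Mt1 read 12.12 and 10.98 in the GM-CSF arrays and 10.47 and 10.66 in the M-CSF arrays. The arrays again did not overlap, but GM-CSF replicate 1 stood 1.14 above replicate 2. Its difference of 0.98 ± 0.34 did not pass (adjusted p = 0.137, limma), and was 0.42 without GM-CSF replicate 1 (adjusted p = 0.0563) and 1.55 without replicate 2 (6.03e-07). The neutrophil, eosinophil and mast cell lists were also highest in GM-CSF replicate 1, as given above, and their part in the metallothionein values was not tested. Mt1 and Mt2 are short, closely related neighbouring genes, so their probes may not part them fully.

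Mtf1, the gene of the zinc-sensing factor, read 8.31 and 8.35 in the GM-CSF arrays and 8.39 on each M-CSF array. It differed by -0.06, with a 95% interval from -0.31 to 0.19. The activity of the MTF-1 protein was not measured here.

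MTF-1 binds metal response elements, with the core TGCACNC or TGCGCNC. The 250 bases before the RefSeq start (GRCm38.p6) of 3 zinc genes are printed because they set the called Mt2 and Slc30a4 beside Slc30a1, a known MTF-1 target that did not pass. Each reads 5′ to 3′ on the gene's strand, and capitals mark matches to the core on either strand. The windows are chr8:94172368-94172617 (plus strand) for Mt2, chr2:122702664-122702913 (minus strand) for Slc30a4 and chr1:191906531-191906780 (plus strand) for Slc30a1.
Mt2: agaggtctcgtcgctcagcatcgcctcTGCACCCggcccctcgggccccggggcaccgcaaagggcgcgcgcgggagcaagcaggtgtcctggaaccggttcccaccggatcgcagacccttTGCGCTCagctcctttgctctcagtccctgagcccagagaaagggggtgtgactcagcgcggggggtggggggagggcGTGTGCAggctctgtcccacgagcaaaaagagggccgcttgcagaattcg
Slc30a4: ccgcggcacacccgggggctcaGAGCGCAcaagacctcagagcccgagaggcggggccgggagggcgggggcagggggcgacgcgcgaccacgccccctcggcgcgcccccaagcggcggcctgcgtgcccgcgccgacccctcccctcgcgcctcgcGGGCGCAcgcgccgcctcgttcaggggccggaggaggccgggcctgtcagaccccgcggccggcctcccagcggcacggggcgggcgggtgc
Slc30a1: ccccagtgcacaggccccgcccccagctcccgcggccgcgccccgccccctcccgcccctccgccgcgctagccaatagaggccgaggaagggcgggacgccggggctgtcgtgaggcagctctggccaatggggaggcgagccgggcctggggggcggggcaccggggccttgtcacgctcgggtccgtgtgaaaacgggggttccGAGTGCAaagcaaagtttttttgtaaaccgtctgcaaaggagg
The Mt2 window holds 3 matches, Slc30a4 2 and Slc30a1 1. Members that were not called had as many: 3 in Slc30a10, 2 of which overlap on opposite strands, and 2 each in Slc30a2 and Atp7a. The number of matches therefore does not separate called from uncalled members. At least 3 matches were present in 1.26% of all 32851 windows in the table. Matches were counted wherever they fell, overlapping ones included, and no other motif was searched. Of the 30 member genes with a window, 18 (60.0%) had a match in at least 1 window, beside 23.8% of all 27025 genes in the table, predicted genes included. Base composition was not matched in that comparison. Among the called genes, Slc41a2, Slc30a5 and Slc39a8 also had a match, Slc31a1 and Slc39a13 had none, and Slc39a4 had no window. The RefSeq window of Mt1 had 1 match. It lies at an upstream RefSeq start and no other Mt1 window was searched, so its count cannot be set beside that of Mt2. A match describes the letters of a window and is no evidence that the factor binds there.

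Among the zinc exporters, Slc30a4 was higher in GM-CSF cells and Slc30a5 lower. Slc30a4 encodes ZnT4, which loads zinc into endosomes and other vesicles. It read 7.52 and 7.34 in the GM-CSF arrays and 6.00 and 6.05 in the M-CSF arrays. Each pair was tight and the groups lay far apart, with the M-CSF mean of 6.03 just above the background level. The difference was 2.65-fold (log2 1.40 ± 0.11, adjusted p = 0.00121 with limma). Slc30a4 was the one member called in every fit run here, with adjusted p of 0.0455 and 0.0450 without M-CSF replicates 1 and 2. The size of the fold rests on an M-CSF level near background.

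Slc30a5 encodes ZnT5, which supplies zinc to enzymes of the early secretory pathway as a partner of ZnT6. It read 8.78 and 8.70 in the GM-CSF arrays and 9.52 and 9.41 in the M-CSF arrays, without overlap. It was 1.65-fold lower in GM-CSF cells (log2 -0.72 ± 0.11, adjusted p = 0.0108 with limma; 0.153 and 0.121 without M-CSF replicates 1 and 2). Its partner gene Slc30a6 differed by -0.02 (95% interval -0.27 to 0.23), and Slc30a7, whose product works in the same compartment, by 0.14 (-0.12 to 0.40). Slc30a6 and Slc30a7 were named after their values were seen.

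Slc30a1, the exporter of the plasma membrane, read 7.80 and 7.71 in the GM-CSF arrays and 7.99 and 7.88 in the M-CSF arrays. Its difference of -0.18 ± 0.11 did not pass (95% interval -0.44 to 0.09). The part of MTF-1 in the Slc30a1 and Mt2 values was not tested. Of the 9 Slc30a genes tested, 7 did not pass, with differences from -0.18 to 0.14. Slc30a8, the transporter of insulin granules, was too dim to test (4.97, 4.98, 5.09 and 5.03), and Slc30a10, a manganese exporter, stayed below the background level in each group.

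The ZIP genes went both ways. Slc39a4 was higher in GM-CSF cells, Slc39a8 and Slc39a13 were lower, 10 did not pass, and Slc39a12 (4.98 to 5.23) was too dim to test. In 8 of the 13 tested both GM-CSF arrays lay below both M-CSF arrays (61.5%, beside 29.2% of all genes tested), and in 4 they lay above (30.8%, beside 26.3%). Slc39a4 encodes ZIP4, best known for zinc uptake in the intestine. It read 9.47 and 10.10 in the GM-CSF arrays and 8.67 and 8.76 in the M-CSF arrays. Here GM-CSF replicate 2 was the highest array, the reverse of the metallothioneins. The difference was 2.09-fold (log2 1.07 ± 0.21, adjusted p = 0.0263 with limma; 0.248 and 0.214 without M-CSF replicates 1 and 2).

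Slc39a8 encodes ZIP8, a carrier of zinc and manganese. It read 6.17 and 6.22 in the GM-CSF arrays and 7.24 and 7.08 in the M-CSF arrays. Both GM-CSF values were close to background, and the groups did not overlap. It was 1.95-fold lower in GM-CSF cells (log2 -0.96 ± 0.11, adjusted p = 0.00463 with limma; 0.0949 and 0.0676 without M-CSF replicates 1 and 2).

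Slc39a13 encodes ZIP13, which releases zinc from the Golgi and vesicles and is needed for connective tissue. It read 9.0 and 9.46 in the GM-CSF arrays and 10.28 and 10.34 in the M-CSF arrays. All arrays lay well above background, and it was 2.12-fold lower in GM-CSF cells (log2 -1.08 ± 0.17, adjusted p = 0.0120 with limma; 0.148 and 0.170 without M-CSF replicates 1 and 2).

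Slc39a2, a ZIP gene of the plasma membrane, had the largest difference of its family but did not pass. It read 8.86 and 7.14 in the GM-CSF arrays and 6.41 and 6.68 in the M-CSF arrays. The GM-CSF arrays were 1.73 apart, the widest gap within a pair among the 34 genes. The difference of 1.45 ± 0.51 (adjusted p = 0.137, limma) was 0.59 without GM-CSF replicate 1 (adjusted p = 0.0106) and 2.32 without replicate 2 (9.06e-09). Mt1, Mt2, Slc39a2 and Slc39a4 were the 4 members whose GM-CSF arrays lay over 0.5 apart. No member had M-CSF arrays so far apart, the widest gap there being 0.39. The part of the neutrophil, eosinophil and mast cell lists in the Slc39a2 values was not tested either.

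**Figure D3:**
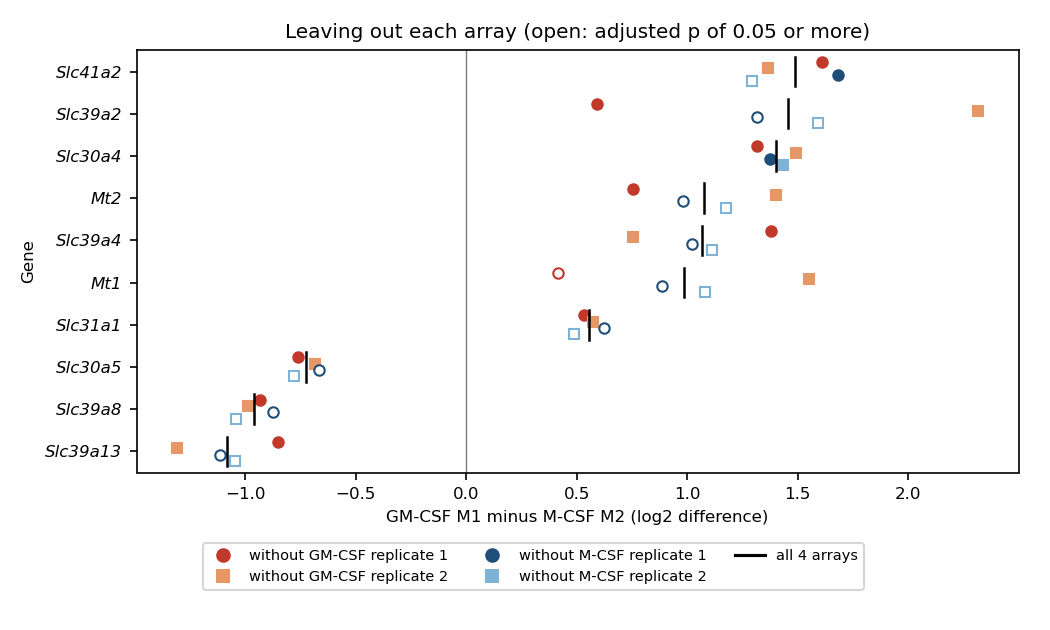
Log2 difference, GM-CSF M1 minus M-CSF M2 (horizontal axis), of the 8 called genes, Mt1 and Slc39a2, with all 4 arrays (black bars) and with each array left out (points; filled where the adjusted p was under 0.05). No point could cross 0, because the arrays of the groups do not overlap for these genes. Slc30a4 is filled throughout, while Slc39a2 moves from 0.59 to 2.32.

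Slc39a10, a ZIP gene of the plasma membrane that MTF-1 is known to repress, read 6.74 and 6.66 in the GM-CSF arrays and 6.96 and 6.76 in the M-CSF arrays. Its difference was -0.16 (95% interval -0.45 to 0.13). The next 3 genes were named after their values were seen. Slc39a14, a carrier of zinc, iron and manganese, differed by -0.48 ± 0.18 and Slc39a6, of the plasma membrane, by -0.36 ± 0.14. Neither passed (adjusted p = 0.157 and 0.173, limma). The differences were -0.73 and -0.52 without GM-CSF replicate 2, and only -0.24 and -0.19 without GM-CSF replicate 1.

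Slc39a1, which encodes the widely expressed uptake carrier ZIP1, just missed the threshold at 0.51 ± 0.13 (adjusted p = 0.0530, limma). Its probe set read 9.08 and 9.33 in the GM-CSF arrays and 8.72 and 8.66 in the M-CSF arrays. Its second probe set read 8.86, 9.07, 8.69 and 8.70 in the same order, a smaller gap in the same direction, and with both averaged the adjusted p was 0.102. RefSeq also lists a pseudogene, Slc39a1-ps, which probes may not part from Slc39a1. With trended and robust variances Slc39a1 passed (0.0356), as it did without GM-CSF replicate 1 (0.00317).

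Of the copper genes, the uptake carrier Slc31a1 was higher in GM-CSF cells. It read 10.66 and 10.61 in the GM-CSF arrays and 10.15 and 10.01 in the M-CSF arrays. The arrays did not overlap, and the difference was 1.47-fold (log2 0.55 ± 0.11, adjusted p = 0.0280 with limma; 0.170 and 0.247 without M-CSF replicates 1 and 2). Slc31a2, which encodes a related protein of intracellular membranes, read 12.08 and 12.17 in the GM-CSF arrays and 11.96 and 12.02 in the M-CSF arrays. Its difference of 0.13 (95% interval -0.13 to 0.39) did not pass.

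Atp7a, the pump that moves copper into the Golgi and phagosomes, read 9.54 and 9.62 in the GM-CSF arrays and 10.17 and 9.92 in the M-CSF arrays. Both GM-CSF arrays were below both M-CSF arrays, opposite to Slc31a1. The difference of -0.47 ± 0.13 did not pass (adjusted p = 0.0719, limma), but did with trended and robust variances (0.0494) and without GM-CSF replicate 2 (0.0220). Atp7a lies on the X chromosome. Its GM-CSF arrays, which differed in Xist, were 0.07 apart, and the part of sex in its values was not tested. Atp7b, the copper pump best known from liver, stayed below the background level in each group.

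The 3 magnesium carriers differed from each other. Slc41a2, a magnesium transporter, had the largest difference of all 34 genes. It read 8.89 and 9.14 in the GM-CSF arrays and 7.72 and 7.33 in the M-CSF arrays. The lowest GM-CSF array lay more than 1 log2 unit above the highest M-CSF array. It was 2.80-fold higher in GM-CSF cells (log2 1.49 ± 0.17, adjusted p = 0.00388 with limma), and its adjusted p rose to 0.0373 and 0.0670 when M-CSF replicates 1 and 2 were dropped.

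Slc41a1, which exchanges magnesium for sodium at the cell surface, read 7.82 and 7.77 in the GM-CSF arrays and 7.67 and 7.63 in the M-CSF arrays. Its difference of 0.14 (95% interval -0.11 to 0.39) did not pass. Slc41a3, linked to magnesium efflux from mitochondria, read 8.44 and 8.55 in the GM-CSF arrays and 8.88 and 9.03 in the M-CSF arrays. Its arrays did not overlap, in the direction opposite to Slc41a2. The difference of -0.46 ± 0.11 just missed the threshold (adjusted p = 0.0543, limma) and passed with trended and robust variances (0.0383), with the stricter filter (0.0447) and without GM-CSF replicate 2 (0.0137).

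Genes of metal handling outside these families were described from 5 lists, some of which share genes. Of their 73 genes, 69 were on the array and 61 tested, and 7 were higher in GM-CSF cells, 5 lower and 49 did not pass. These are 11.5% and 8.2% of the genes tested, beside 6.18% and 4.53% of all genes tested. The median difference over the 69 was 0.03. When M-CSF replicate 1 or 2 was left out, 0 were higher and 0 lower (limma; 10 and 6 at an unadjusted p under 0.05 without M-CSF replicate 1, 8 and 8 without replicate 2). Of 9 other zinc genes, 0 passed in either direction (limma; 1 and 1 unadjusted), among them Mt3 and the zinc-binding calprotectin genes S100a8 and S100a9. S100a8 read 8.54 and 7.04 in the GM-CSF arrays and 6.96 and 6.84 in the M-CSF arrays, with GM-CSF replicate 1 the highest, as for Mt1. Its difference of 0.89 ± 0.44 was 0.14 without that array. S100a9 differed by 0.01, and by -0.42 and 0.45 without GM-CSF replicates 1 and 2 (adjusted p = 0.0417 and 0.0257, limma). These 3 genes were named after their values were seen.

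Of 16 other copper genes tested, 0 were higher (beside 6.18% of all genes tested) and 2 lower (12.5%, beside 4.53%). At an unadjusted p under 0.05 (limma) 3 were higher and 3 lower. Cp, the copper enzyme ceruloplasmin, which oxidises iron, read 9.61 and 10.09 in the GM-CSF arrays and 11.30 and 11.32 in the M-CSF arrays. It was 2.75-fold lower in GM-CSF cells (log2 -1.46 ± 0.17, adjusted p = 0.00460 with limma). Loxl3, a lysyl oxidase that uses copper, differed by -0.89 ± 0.20 (adjusted p = 0.0435, limma), and lost its call with no filter (0.0562) and after quantile normalization (0.0530). Of 16 other magnesium genes tested, 0 were higher (beside 6.18%) and 1 lower (6.25%, near the 4.53% of all genes tested). At an unadjusted p under 0.05 (limma) 0 were higher and 4 lower. The called gene was Nipa2, a magnesium carrier, at -0.53 ± 0.12 (adjusted p = 0.0447, limma). Its call was lost with no filter (0.0630) and after centring on array medians (0.0532).

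Of 16 iron and manganese genes tested, 3 were higher (18.8%, beside 6.18% of all genes tested) and 1 lower (6.25%, beside 4.53%). Slc25a37, mitoferrin, which carries iron into mitochondria, read 10.00 and 10.22 in the GM-CSF arrays and 8.96 and 8.88 in the M-CSF arrays (log2 difference 1.19 ± 0.12, 2.29-fold, adjusted p = 0.00268 with limma). Tmem165, a Golgi protein of manganese supply, differed by 0.56 ± 0.11 and Slc48a1, which carries haem out of phagolysosomes, by 0.50 ± 0.11. Slc48a1 lost its call with no filter (adjusted p = 0.0559, limma). Tfrc, the transferrin receptor for iron uptake, read 7.72 and 7.65 in the GM-CSF arrays and 8.80 and 8.60 in the M-CSF arrays, 2.02-fold lower (-1.02 ± 0.12, adjusted p = 0.00443 with limma).

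The last list, of metal stress genes and partners of MTF-1, was chosen like the others with earlier results of these data known. Its shares therefore only describe it, and a response to metals was not measured. Of its 8 genes tested, 4 were higher (50%, beside 6.18% of all genes tested) and 1 lower (12.5%, beside 4.53%). None of the 5 was called when M-CSF replicate 1 or 2 was left out (adjusted p of 0.0521 or more, limma). Nqo1, a quinone reductase, differed by 1.35 ± 0.16, with its M-CSF mean of 5.16 within the background range. Hmox1, haem oxygenase 1, read 11.97 and 11.99 in the GM-CSF arrays and 11.32 and 11.14 in the M-CSF arrays (0.75 ± 0.11). Hif1a, the oxygen-regulated factor, was higher by 1.08 ± 0.14, and Gclc, an enzyme of glutathione synthesis that was named after its values were seen, by 0.53 ± 0.12 (adjusted p = 0.0473, and 0.0664 with no filter, limma). Ndrg1, a gene induced by low oxygen and by metals such as nickel, was lower at -3.27 ± 0.40. The GM-CSF arrays read 8.58 and 9.94 and the M-CSF arrays 12.53 and 12.55. It lost its call with trended and robust variances (adjusted p = 0.0890, limma).

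**Figure D4:**
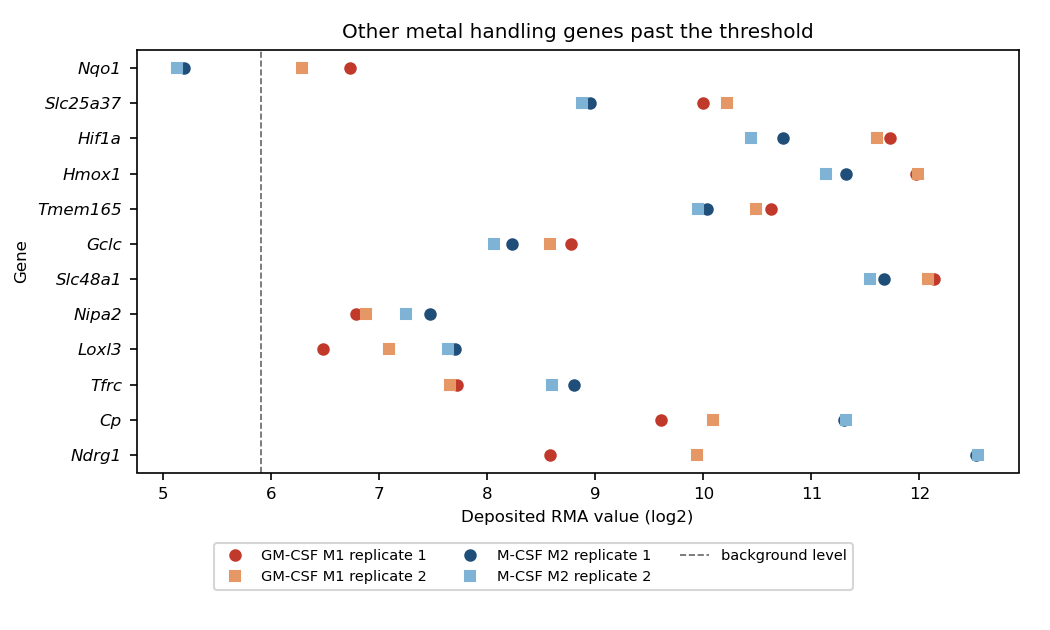
Deposited log2 value (horizontal axis) on the 4 arrays of the 12 other metal handling genes past the threshold, ordered by difference, with the background level dashed. In each row both GM-CSF arrays lie on the same side of both M-CSF arrays, and Ndrg1 and Cp show the widest separation among those that were lower.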

How the data were processed

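Arrays were 1-colour Affymetrix arrays, each given labelled cDNA made by random priming from 300 ng of total RNA, per the labels' protocols. The authors deposited log2 values, 1 per probe set. According to the submitters' processing notes they come from RMA and Affymetrix Expression Console 1.1. RMA corrects background, equalises the arrays' distributions and combines probes, which shrinks the differences of dim genes and hides any change in RNA content per cell. Genome build and scan dates are not given in the sources used here, and no detection calls come with the values. The number of arrays limits the precision.

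Of 35556 probe sets, 21789 had 1 gene symbol in the platform annotation, 1621 several and 12146 none listed, and all 34 members matched the RefSeq gene table (GRCm38.p6). The probe set with the highest mean over the 4 arrays stood for a gene. Genes were tested when at least 2 arrays lay above their 30th percentile of all probe sets (14995 genes). The test was the two-sided moderated one of limma (version 3.58.1, R 4.3.3), with 4.17 prior and 2 residual degrees of freedom. P-values were adjusted by Benjamini-Hochberg, with a threshold of 0.05. Differences are GM-CSF minus M-CSF, and folds are powers of them. Intervals are moderated 95% intervals. A list's log2 summed level is log2 of the sum of its unlogged values. Promoter windows came from RefSeq (GRCm38.p6). Plots used Python 3.11.15, pandas 2.3.3 and matplotlib 3.10.9.

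The members and lists were chosen with earlier results of these data known. Array values are given for called members, up to 3 per family with the largest absolute difference, those at least 1.5-fold apart and Mt1, Mt2, Mtf1, Slc30a1, Slc31a1, Atp7a, Slc39a10 and Slc41a1, and at most 4 called genes of each other list. Other settings were no filter, the 50th percentile, quantile normalization, centring on medians, mean of probe sets, trended and robust variances, a replicate block, and each array left out with the same genes tested. The fit was tested on simulated data.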

Additional observations from a re-analysis of the deposited data

How the results depend on the processing

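With no filter, a stricter filter, quantile normalization, centring, probe set means and the replicate block, 5 or 6 metal transporter and metallothionein genes were higher and 3 or 4 lower. With trended and robust variances 5 were higher and 5 lower. Leaving out 1 array, the higher ones numbered 1 to 7 and the lower ones 0 to 7. Of all genes tested, 168 to 1683 were higher and 65 to 1522 lower with 1 array left out. Of the other metal handling genes, 5 were higher and 3 lower with no filter, and with 1 array left out 0 to 16 were higher and 0 to 12 lower. The 17 members and 11 other genes of the naming rule kept their direction in every fit. Their arrays did not overlap between groups, so leaving out 1 array could not reverse them. The filters, the variance setting and the replicate block leave the difference itself unchanged, so they could not reverse it either. Some of the remaining members and metal list genes that the text names changed sign when 1 array was left out. These were Slc30a6 (0.0049 without GM-CSF replicate 1), and Slc30a10 and Atp7b (0.04 and -0.03 without M-CSF replicate 1). Mt3 (-0.01 without M-CSF replicate 2) and S100a9 did so too. Cell type markers are not covered by this statement. Over the 11 alternatives the adjusted p (limma) ranged from 5.62e-07 to 0.0455 for Slc30a4, 2.4e-06 to 0.067 for Slc41a2, 1.9e-06 to 0.273 for Mt2, 2.13e-06 to 0.248 for Slc39a4, 0.00649 to 0.247 for Slc31a1, 2.41e-06 to 0.17 for Slc39a13, 7.08e-05 to 0.0949 for Slc39a8 and 0.000849 to 0.153 for Slc30a5. The median difference of the tested members stayed between -0.04 and -0.01. Same-numbered arrays share only a number, since the labels tie them to no common animal or day and their deviations correlated at 0.06. With the replicate block all 8 called members were called, 5 higher and 3 lower, and Nipa2 was not (adjusted p = 0.0595, limma). The 4 arrays limit precision: the intervals of Slc30a1, Slc41a1 and Slc31a2 span differences of up to 0.44 in size.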
